A study of Zea mays with 2 samples.

Results

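KN1 summits at the 3′ ends of maize genes were taken from a chromatin immunoprecipitation (ChIP-seq) peak table. A summit is the base of a peak at which the read pileup was highest. A summit was counted when it lay within 500 bp of the annotated end of its gene, inside the gene or past it. The gene had to be at least 1500 bp long, and the peak had to be listed with that 1 gene only, on chromosomes 1 to 10. By this rule 1710 of the 21437 listed peaks (7.98%) were gene end summits. They belonged to 1656 genes, or 17.2% of the 9622 genes of this length with a peak listed for them alone. Inside the gene lay 869 of them and downstream 841, with 2 summits on the last annotated base.

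The cells were leaf protoplasts of the inbred line B73, from seedlings that were germinated for 3 days in a light and dark cycle and then etiolated for 7 days in a dark room. They carried a transfected plasmid for overexpressed KN1 with a biotin ligase recognition peptide (BLRP), so the protein came from a plasmid and not from its own gene. The design held 1 ChIP library and 1 input library, both from such protoplasts, and no library without tagged KN1 was analysed here. No value therefore has a replicate error, and the intervals and tests cover only the counting of peaks in this pair of libraries. Neighbouring peaks are not independent.

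KN1 (KNOTTED1) is a KNOX-class homeodomain protein that keeps shoot meristem cells undifferentiated, and it is named for the knots that form on maize leaves when it is expressed there out of place. Its class usually binds DNA together with partner proteins of the BELL class. The annotated end of a gene is the last position of its model. It was not checked here against the sites where transcripts are cut and polyadenylated. The stretch before this end usually holds the 3′ untranslated region. Regulatory DNA is best known from the sequence before gene starts, while DNA past gene ends can also be bound by transcription factors. The gene identifiers are those of the B73 annotation AGPv4 and were not paired with gene symbols in the sources used here, so genes are given by identifier and position.

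Fold below is a linear ratio given by the authors for each peak. It is the ChIP pileup plus 1, divided by the input level plus 1, where the pileup was highest. Gene end summits had a median fold of 8.06 (quartiles 5.61 and 14.6), a lowest of 3.1 and a highest of 91.1. The read pileup at the summit ran from 9 to 259, with a median of 22.5. The peaks had a median width of 418 bp and were up to 3048 bp wide. The input level used for fold has the genome background as its lower limit, so input below that is not seen. It stood at this background at all but 108 of the peaks (6.32%), and its highest was 3.52 against a background of 1.85. Fold at the others is thus set by the ChIP pileup alone. Of the 1710 summits, 698 (40.8%, exact 95% interval 38.5 to 43.2%) reached 10-fold, compared with 46.0% of all 14988 peaks with 1 gene of this length. At 20-fold or more stood 274 (16.0%), compared with 21.3% of all those peaks. Fold and peak width went together across the summits (Spearman rho 0.79, n = 1710), and both read the same pileup.

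Around the gene end, KN1 summits formed a pair of shoulders with a dip between them. The highest bin lay inside the gene, 300 to 400 bp before the end, with 245 summits (exact Poisson 95% interval 215 to 278). The next bin towards the end, at 200 to 300 bp, held 203 (176 to 233), and the one at 100 to 200 bp held 125 (104 to 149). The last 100 bp of the gene held 117 (96.8 to 140.2) and the first 100 bp past it 116 (95.9 to 139). Past the dip the counts were level, with 187, 182, 181 and 175 summits in the 4 bins from 100 to 500 bp downstream. The intervals of the last gene bin and of the first bin past it overlapped neither that of the bin at 300 to 400 bp inside nor that of any bin from 100 to 500 bp downstream. The shape was read from the counts themselves and has no test of its own.

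**Figure D1:**
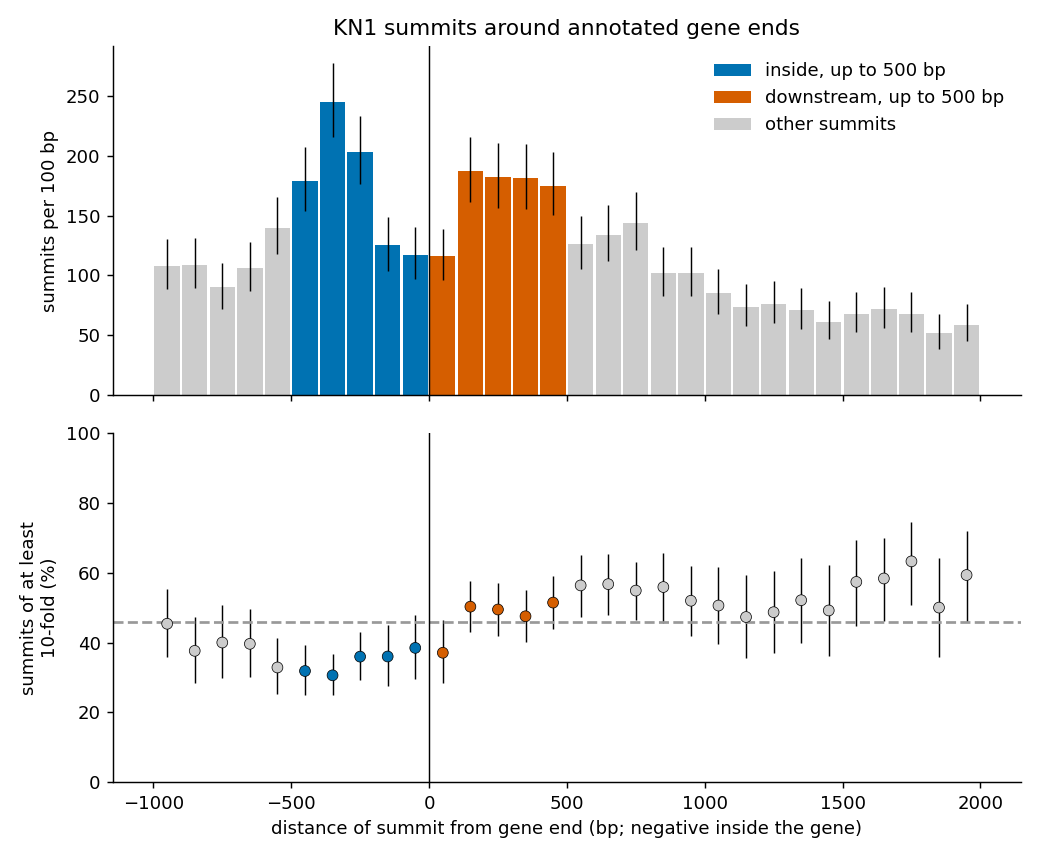
The upper panel plots KN1 summits per 100 bp against the distance from the annotated gene end (negative inside the gene), with exact Poisson 95% intervals; the counted summits are in colour and others in grey. The lower panel plots the share of summits of at least 10-fold with exact binomial 95% intervals, and the dashed line is the 46.0% of all peaks. Counts dip to 117 and 116 on the sides of the end, and the share is 50.3% in the bin from 100 to 200 bp downstream against 37.1% in the bin before it.

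The dip was present on both strands. Genes on the plus strand had 117 summits within 100 bp of the end and 207 at 200 to 400 bp inside, and genes on the minus strand had 116 and 241. It was present in weak and in strong summits. Below 10-fold there were 145 summits within 100 bp of the end against 300 at 200 to 400 bp inside, and from 10-fold up there were 88 against 148.

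The shape differed between ranges of gene length. In genes from 3000 bp to under 6000 bp 21 summits lay in the last 100 bp of the gene, against 89 at 300 to 400 bp inside. In genes of 6000 bp or more the counts were 15 and 44. In genes from 1500 bp to under 3000 bp the last 100 bp held 81, the bin before it 64 and the bin at 300 to 400 bp 112. The lowest bin of these shorter genes was the first 100 bp past the end, with 45 summits.

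**Figure D2:**
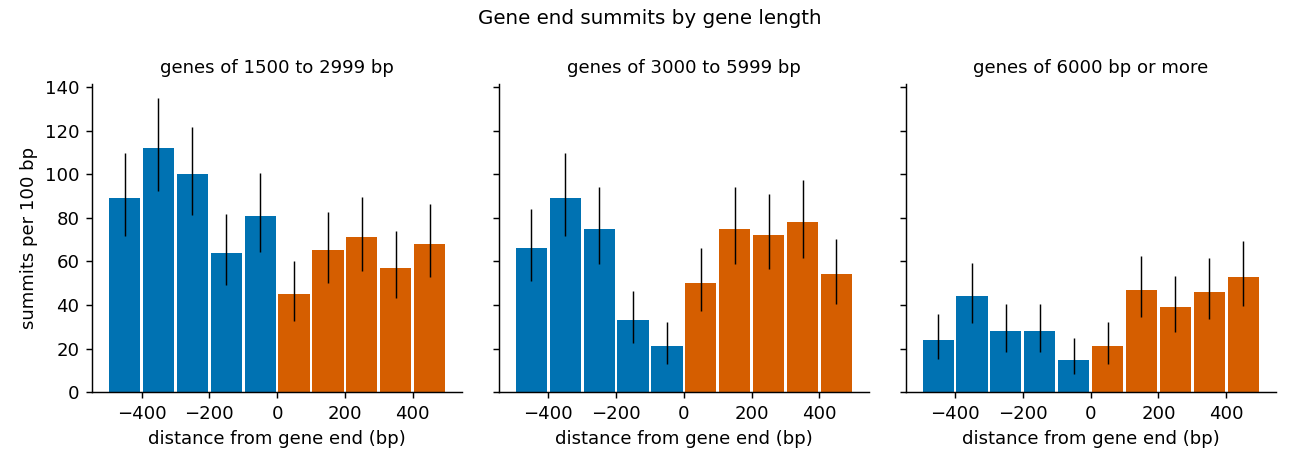
Each panel plots gene end summits per 100 bp against the distance from the gene end for genes of 1 length range, with exact Poisson 95% intervals; blue bars are inside the gene and orange bars downstream. The last 100 bp of the gene hold 81, 21 and 15 summits from the shortest to the longest range.

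The 500 bp windows on each side of the gene end held more summits than the 500 bp farther out on the same side. Downstream, 841 summits lay up to 500 bp past the end and 608 between 500 and 1000 bp, a ratio of 1.38 (95% interval 1.24 to 1.54; two-sided exact binomial test, adjusted p = 4.05e-09). A peak is listed with its nearest gene, so the count farther out is also lowered wherever another gene lies nearer. Inside genes of at least 3000 bp, 423 summits lay in the last 500 bp and 304 in the 500 bp before them, a ratio of 1.39 (1.2 to 1.62; exact binomial test, adjusted p = 2.78e-05). The 100-bp bins that touch the end did not share in this excess, and neither did the bin from 100 to 200 bp inside. Over all genes the bins that touch the end held 117 and 116 summits, and the bin from 100 to 200 bp inside held 125. The bins from 500 to 1000 bp downstream held 102 to 144, and those as far inside 90 to 140. Gene starts held more than gene ends. With the same genes and the same window, 5724 summits lay at starts, 3.35 times as many (3.17 to 3.54), and the ratio ran from 2.69 on chromosome 7 to 3.82 on chromosome 6.

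The balance of inside and downstream summits differed with gene length. Over all genes the ratio of inside to downstream was 1.03 (0.939 to 1.14; exact binomial test, adjusted p = 0.685). In genes from 1500 bp to under 3000 bp, 446 of 752 summits (59.3%, 55.7 to 62.8%) were inside. In genes of 3000 bp or more, 423 of 958 (44.2%, 41.0 to 47.4%) were inside, a ratio of 0.791. The difference between the length ranges had an odds ratio of 1.84 (1.52 to 2.24; two-sided Fisher's exact test, p = 5.66e-10) and was tested after the values had been seen. Among peaks with a −log10 q of at least 10 the ratio was 0.847 (exact binomial test, adjusted p = 0.0132), and in a window of 250 bp it was 0.83 (adjusted p = 0.0281).

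The share of genes with a gene end summit was higher among short genes. Of the genes from 1500 bp to under 2000 bp with a peak, 29.2% had one, and of those of 10000 bp or more, 12.5%. Per peak, 17.8% of the peaks of the shortest range were gene end summits (16.1 to 19.6%) and 9.33% of those of the longest (7.89 to 10.9%). The window takes up more of a short gene, and how far this bears on the share was not tested. Fold showed almost no rank correlation with gene length (rho 0.0035, n = 1710).

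Downstream summits were stronger than summits inside the gene. Their median fold was 9.47 (quartiles 5.96 and 17.9), against 7.36 inside (5.26 and 12.3). At least 10-fold enrichment was reached by 403 of 841 downstream summits (47.9%, 44.5 to 51.4%) and by 295 of 869 inside ones (33.9%, 30.8 to 37.2%). The odds ratio of inside against downstream was 0.559 (0.46 to 0.679; Fisher's exact test, adjusted p = 1.35e-08). At 20-fold the shares were 21.6% and 10.6%. Input above the background was found at 5.11% of downstream and 7.48% of inside summits, and among summits with input at the background the 10-fold shares were 47.9% and 34.3%. Peaks with their summit downstream were also wider, with a median of 445 bp against 397 bp. Gene starts had a contrast in the same direction, so it is not particular to gene ends. At starts, the 100-bp bins up to 500 bp inside the gene had 22.6% to 38.2% of their summits at 10-fold or more. Those up to 500 bp upstream had 42.8% to 58.3%.

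Within the 500 bp windows, the change in strength lay just past the gene end. From 500 bp inside up to 100 bp past the end, each 100-bp bin had between 30.6% and 38.5% of its summits at 10-fold or more. Deeper in the gene, the bins from 500 to 1000 bp before the end had 32.9% to 45.4%. In the bins from 100 to 500 bp downstream the share was 47.5% to 51.4%. Within each side, fold had little relation with the distance from the end (rho 0.05 downstream, n = 841; rho −0.08 inside, n = 869).

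In these counts the size of the contrast varied between chromosomes. The 10-fold share was higher downstream than inside on 8 of the 10 chromosomes. On chromosome 3 it was 62.0% downstream and 33.3% inside, and on chromosome 5 it was 49.1% and 26.4%. On chromosome 1, with the most gene end summits (284), it was 41.5% and 41.6%, and on chromosome 4 it was 43.3% and 43.5%. Whether the chromosomes differ in this contrast was not tested.

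**Figure D3:**
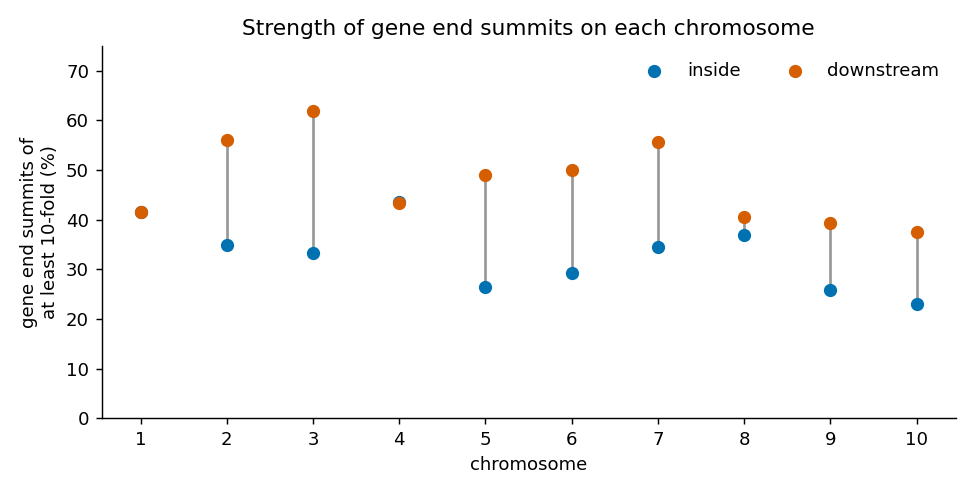
The share of gene end summits of at least 10-fold, in percent, is plotted for each chromosome, with summits inside the gene in blue and downstream in orange; the grey line joins both values of 1 chromosome. Orange lies above blue on 8 of 10 chromosomes, and the points of chromosomes 1 and 4 almost coincide.

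Set against other positions, gene end summits were compared first with both sides pooled. The pooled 10-fold share of 40.8% was next to the 40.5% of gene interiors, more than 500 bp from the start and the end (n = 2546; odds ratio 1.01, 0.893 to 1.15; Fisher's exact test, adjusted p = 0.953). It was also near the 42.9% of gene start summits (odds ratio 0.916, 0.821 to 1.02; Fisher's exact test, adjusted p = 0.188), although at 20-fold the shares were 16.0% at ends and 19.6% at starts (odds ratio 0.784, adjusted p = 0.0018). Summits more than 500 and up to 2000 bp downstream were stronger, with 54.3% of 1294 at 10-fold or more (odds ratio of gene ends 0.58, 0.501 to 0.671; Fisher's exact test, adjusted p = 1.45e-12). In peaks of 400 to 600 bp this last odds ratio was 0.742 (Fisher's exact test, adjusted p = 0.0816).

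Taken separately, a choice made after the values were seen, the sides fell on opposite sides of the gene interior. Inside summits had a lower 10-fold share than the interior (odds ratio 0.754, 0.642 to 0.886; Fisher's exact test adjusted over 6 such comparisons, p = 9.13e-04) and downstream ones a higher share (1.35, 1.15 to 1.58; adjusted p = 3.63e-04). Gene start summits were kept pooled over both sides of the start. Against them the odds ratios by Fisher's exact test were 0.683 for inside summits (adjusted p = 1.48e-06) and 1.22 for downstream ones (adjusted p = 0.00731). Start summits also had lower 10-fold shares inside the gene than upstream, so these odds ratios do not compare like sides. Like sides of starts and ends were not tested against each other. Downstream summits were still weaker than those more than 500 and up to 2000 bp past the end (odds ratio 0.774, 0.65 to 0.92; Fisher's exact test, adjusted p = 0.00476).

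The peaks around gene end summits often reached across the end. The peak covered the last annotated base in 675 cases (39.5%). This held for 31.2% of peaks with their summit inside and for 48.0% of those with it downstream. For 2 of these peaks, both at genes on the minus strand, the cover was a single base. Around inside summits the peak reached farther back into the gene than towards its end in 519 cases and the other way in 346. The counts were 238 and 176 on the plus strand and 281 and 170 on the minus strand. Around downstream summits they were 214 and 206 on the plus strand and 241 and 178 on the minus strand.

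The strongest downstream summit was at Zm00001d038859 on chromosome 6 (165987036 to 165991710, plus strand). Its peak at 165991011 to 165992395 covered the gene end and had its summit 196 bp past it, with a fold of 91.1 and a pileup of 259 reads. It was the only peak listed for this gene. Zm00001d023669 on chromosome 10 (14594105 to 14596141, plus strand) had a summit 138 bp past its end with a fold of 83.1. Zm00001d003354 on chromosome 2 (41358363 to 41370652, plus strand), a gene of 12289 bp, had the same fold 371 bp past its end. Each was again the only peak of its gene, and the nearest other listed summits were 55008 and 49234 bp away.

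Other strong downstream summits shared their gene with weaker peaks. Zm00001d006254 on chromosome 2 (202895910 to 202898244, minus strand) had a fold of 82.4 at 234 bp past its end and 12.3 at 293 bp upstream of its start. Zm00001d041912 on chromosome 3 (143139069 to 143145913, plus strand) had 81.7 at 410 bp past its end and 37.2 at 447 bp upstream of its start. Zm00001d001906 on chromosome 2 (2644303 to 2648830, minus strand) had 72.6 at 145 bp past its end, 7.36 in its interior and 41.0 at 318 bp upstream of its start. In these genes the end was the strongest of the listed positions.

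The other 2 of the 8 genes with the strongest downstream summits had none within 500 bp of the gene start. Zm00001d052067 on chromosome 4 (178304940 to 178308282, minus strand) had a fold of 77.5 at 136 bp past its end, and its other 3 peaks had folds of 4.56 to 7.71. Zm00001d033633 on chromosome 1 (269322706 to 269325729, plus strand) had 72.9 at 353 bp past its end and its other peaks had 24.5 and 5.61. Each of the 8 peaks covered the gene end, and input was at the background at each.

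Inside the gene, the strongest end summit was at Zm00001d034129 on chromosome 1 (284692621 to 284695285, plus strand). It lay 290 bp before the end, with a fold of 76.4 and a pileup of 217 reads in a peak from 284694222 to 284695770. The gene had 4 other peaks, among them one 152 bp inside its start with a fold of 6.66 and one 1078 bp past its end with 27.0. Zm00001d020378 on chromosome 7 (110059148 to 110061879, minus strand) came next, with a fold of 67.0 at 427 bp before its end. Its peak stopped 5 bp short of the last base.

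The others of the 8 strongest inside summits had folds from 52.6 to 60.3. Zm00001d009596 on chromosome 8 and Zm00001d021936 on chromosome 7 had folds of 60.3 and 58.9 at 272 and 290 bp before the end, and each was the only peak of its gene. Zm00001d040621 on chromosome 3 had 55.7 at 489 bp before its end and 22.3 at 152 bp upstream of its start. Zm00001d053195 on chromosome 4 had 54.3 at 217 bp before its end and 5.61 at 156 bp upstream of its start. Zm00001d036775 on chromosome 6 had 53.6 at 268 bp before its end, with the start of another listed gene 779 bp from the summit. Zm00001d018502 on chromosome 5, the closest to its end at 29 bp, had 52.6 there and 7.31 at 96 bp upstream of its start.

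Of the 49 summits with a fold of 50 or more, 37 were downstream and 12 inside. Within 100 bp of the end lay 2 of these 49 (4.08%), against 233 of all 1710 (13.6%), 88 of the 698 at 10-fold or more (12.6%) and 145 of the 1012 below 10-fold (14.3%). The difference at 50-fold was not tested. Their peaks were broad, with a median width of 1095 bp, and 40 of the 49 covered the end. The 3 summits closest to the end at 20-fold or more belonged to Zm00001d041556 on chromosome 3, 2 bp inside with a fold of 20.7, to Zm00001d031777 on chromosome 1, 3 bp past it with 40.7, and to Zm00001d048925 on chromosome 4, 4 bp inside with 29.1. At Zm00001d031777 the start was stronger, with a fold of 76.8 at 405 bp upstream.

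The widest gene end peaks were strong as well. The peak at Zm00001d016228 on chromosome 5 was 3048 bp wide with a fold of 69.8, and its summit lay 165 bp past the end. That at Zm00001d016708 on chromosome 5 was 2912 bp wide with a fold of 51.5 at 432 bp before the end. That at Zm00001d020696 on chromosome 7 was 2410 bp wide with a fold of 70.5 at 494 bp past the end. Raised input was slight. The highest levels, 3.52, 3.02 and 3.02, were at inside summits of Zm00001d027508, Zm00001d033230 and Zm00001d008731, whose folds were 3.1, 11.2 and 4.73.

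Folds just within and just outside the 500 bp limit overlapped. Just within it, inside summits of Zm00001d007777, Zm00001d001827 and Zm00001d046346, at 499 or 500 bp, had folds of 7.01, 18.2 and 9.63. Just outside it, those of Zm00001d009907, Zm00001d018262 and Zm00001d053872, at 502 bp, had 10.9, 5.96 and 4.91. Just within it downstream, Zm00001d028574, Zm00001d044338 and Zm00001d051804 at 500 bp had folds of 18.9, 11.6 and 7.36. Beyond the limit, Zm00001d022427, Zm00001d042631 and Zm00001d041789 at up to 503 bp had 4.91, 21.4 and 8.06.

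A gene end summit was often accompanied by other peaks of the gene. It was the only peak for 553 of the 1656 genes (33.4%, 31.1 to 35.7%). The share of all listed genes with a single peak is not given here. A gene start summit was also present in 675 genes (40.8%). Over all 9622 genes of this length with a peak listed for them alone, 5662 had a gene start summit, a higher share. That set includes genes listed for their start summit only. Among 1779 genes with an interior summit and none at the end, 41.4% had a gene start summit, and the difference did not pass (odds ratio 0.975, 0.851 to 1.12; Fisher's exact test, adjusted p = 0.874). In genes of at least 3000 bp the odds ratio was 0.768 (Fisher's exact test, adjusted p = 0.00503). Summits that were the only peak had a median fold of 7.71, and those of genes with 3 or more peaks had 8.76.

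In genes with a summit at both ends, the gene start had the higher fold more often, a result that depended on the settings. The end was higher in 296 and the start in 370 of 675 genes, with 9 ties, a ratio of 0.8 (0.684 to 0.935; two-sided exact binomial test, adjusted p = 0.00928). In genes of at least 3000 bp the ratio was 1.01 (exact binomial test, adjusted p = 1), and without chromosome 5 it was 0.829 (adjusted p = 0.0548). In peaks of 400 to 600 bp the direction turned, with the end higher in 33 and the start in 24 genes, a ratio of 1.38 (exact binomial test, adjusted p = 0.434). The call was also lost at a −log10 q of at least 10 (0.813, exact test, adjusted p = 0.111) and in a window of 250 bp (0.81, adjusted p = 0.205). Where the end summit was inside the gene, the end was higher in 128 and the start in 210 genes, with median folds of 7.71 and 11.2. Where it was downstream, the counts were 168 and 160, with medians of 10.6 and 9.47. Across the 675 genes the folds at both ends showed almost no rank correlation (rho −0.01). Among the strongest pairs was Zm00001d027436 on chromosome 1, with 70.8 at 358 bp past its end and 36.1 at 149 bp upstream of its start. The end exceeded the start by at least 2-fold in 132 genes and fell below it by as much in 214.

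**Figure D4:**
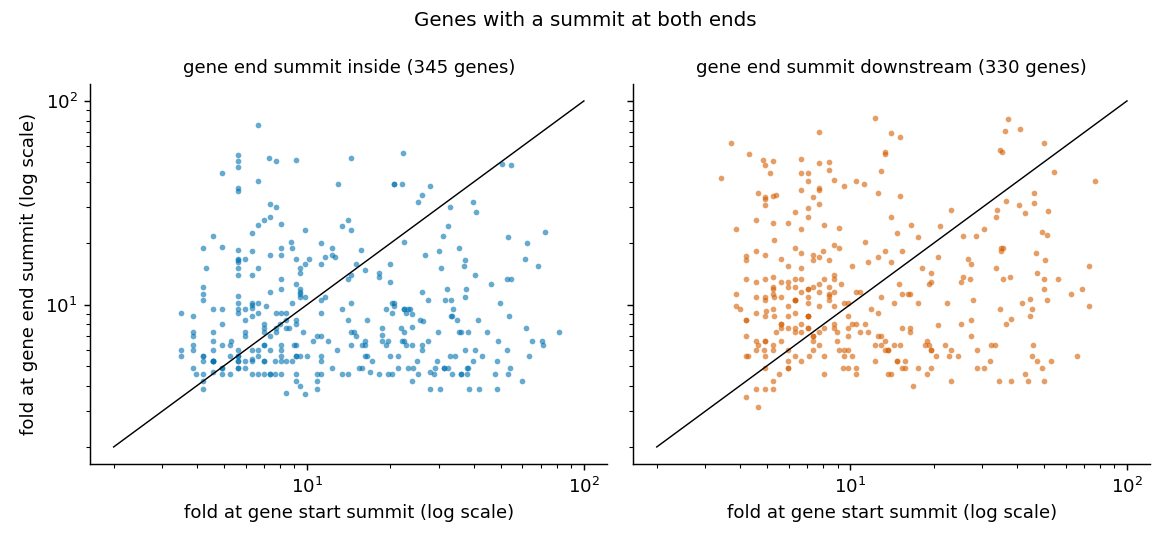
Each point is a gene with a summit within 500 bp of its start and of its end; the axes give the fold at the start and at the end on log scales, the line marks equal folds, and the panels separate end summits inside the gene (345 genes) from those downstream (330 genes). The points scatter without a trend, and below the line lie 210 genes in the left panel and 160 in the right.

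Both sides of the end carried a summit in 53 genes. Their summits were 396 to 910 bp apart, with a median of 600 bp. Downstream was the stronger in 39 genes and inside in 13, with median folds of 11.2 and 6.31 and 1 tie. At Zm00001d042627 on chromosome 3 (174461425 to 174467990, minus strand) the fold was 65.9 at 392 bp past the end and 10.5 at 248 bp before it. Zm00001d000990 on chromosome 2 had 50.1 at 479 bp past its end and 4.56 at 146 bp before it. Zm00001d026322 on chromosome 10 had 35.4 at 373 bp past its end and 4.91 at 481 bp before it, and Zm00001d014201 on chromosome 5 had 34.7 at 219 bp past and 9.47 at 361 bp before. Zm00001d020703 on chromosome 7 went the other way, with 38.9 at 52 bp before its end and 12.3 at 465 bp past it.

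The rule kept only peaks listed with 1 gene, which left out 94 summits at gene ends that had a second gene in the table, so the count of summits near another gene is held down by the choice. A listed gene is one with at least 1 peak in the table, and genes without a peak were not analysed here. The start of another listed gene lay within 1000 bp of 31 summits (1.81%), and the end of one within 1000 bp of 64 (3.74%). Of the 31, 13 reached 10-fold (41.9%), against 40.8% of the other 1679 (odds ratio 1.05, 0.51 to 2.15; Fisher's exact test, adjusted p = 1). At 20-fold the counts were 11 of 31 and 263 of 1679, an odds ratio of 2.96 (1.4 to 6.25; Fisher's exact test, adjusted p = 0.0155). Another listed summit lay within 1000 bp of 353 gene end summits (20.6%). The shares near another gene or summit are not given here for peaks at other positions, so they cannot be called particular to gene ends.

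Along the chromosomes, gene end summits made up 10.7% to 12.9% of the peaks with 1 gene of this length on each chromosome, and their density ran from 0.616 per Mb on chromosome 4 to 0.926 per Mb on chromosome 1. The outer parts of the chromosomes, the first and last 20% of their extent, held 1109 of 1710 (64.9%), against 61.7% of gene start summits (odds ratio 1.14, 1.02 to 1.28; Fisher's exact test, adjusted p = 0.0336). The share at ends was the higher on 7 of 10 chromosomes, and on chromosome 4 it was 43.4% against 52.7%. The difference no longer passed the exact test without chromosome 2 (adjusted p = 0.147), 5 (0.129), 6 (0.0912), 8 (0.0676) or 9 (0.0875). In peaks of 400 to 600 bp both shares were 62.5% (odds ratio 1.0; Fisher's exact test, adjusted p = 1). The difference also did not pass at a −log10 q of at least 10 (odds ratio 1.04, exact test, adjusted p = 0.746) or in a window of 250 bp (1.16, adjusted p = 0.121).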

How the data were processed

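One KN1 ChIP and 1 input library of maize leaf protoplasts were sequenced in 75-bp reads, per the labels. Trimming and mapping tools were fastp (version 0.21.0), Bowtie2 (version 2.4.2) and SAMtools (version 1.11), per the submitters' processing notes, and the version of MACS2, also named there, is not given in the sources used here. The deposited table has no header and lists 1 row per peak and gene. It holds the authors' fold at the summit (a linear ratio), −log10 p-value, −log10 q-value, score, summit offset and gene distance. Peaks were called on single libraries, so none was pooled. Apart from the gene identifiers, which are those of AGPv4, the genome build is not given in the sources used here. The peak names hold an effective genome size of 700 Mb.

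Peak starts were made 1-based and gene positions kept as deposited. The deposited distances read gene starts as 0-based, so the end of a gene on the minus strand may lie 1 bp farther inside. Pileup and input were recovered by inverting the MACS2 formulas for the deposited fold and p-value, within a relative error of 1e-05 for 21437 peaks. The code was tested on simulated data. Read depth is not in the table, and duplicates were removed per the peak names. Shares have exact Clopper-Pearson and counts exact Poisson 95% intervals, and odds ratios have Woolf intervals. P-values of the 12 planned comparisons were adjusted by Benjamini-Hochberg, with 0.05 as the threshold. Named genes are the 8 highest folds on each side, the 3 closest to the end at 20-fold, the 3 on each side of the limit, the 3 widest, the 3 with most input, up to 5 genes with several gene end summits and up to 5 with a start summit. The set, the lists and the tests were chosen with earlier results of these data known. Left out were 94 peaks with several genes and 991 with shorter genes, whose summits also lay within 500 bp of a gene end. No sequence of the same build was used here. Scripts ran under Python 3.11.15 with scipy 1.17.1 and pandas 2.3.3. Arrays were handled with numpy 2.4.6, and plots drawn with matplotlib 3.10.9.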

Additional observations from a re-analysis of the deposited data

How the results depend on the processing

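Of 214 alternatives over the 12 comparisons, 88 planned and 126 added after seeing the data, 190 kept the side of the threshold. These include changes of direction in which neither value passed. With a neighbouring start, for example, the odds ratio of 1.05 was 0.776 in genes of at least 3000 bp. The cause of the shifts was not tested. The excess of both windows over their flanks, the excess of starts over ends and the weaker folds inside than downstream (odds ratio 0.429 to 0.672) held under all that were run. Some alternatives could not change a comparison. The limit of 3000 bp only repeats the inside flank test (1.39), and 1 peak per gene repeats that of end against start fold (0.8). Runs without 1 chromosome share most of their peaks. The ratio of inside to downstream, 1.03, became 0.847 at −log10 q of at least 10, 0.791 in genes of at least 3000 bp and 0.83 in a window of 250 bp. The odds ratio of gene ends against starts, 0.916, became 0.784 at 20-fold. Against starts pooled over both sides it became 0.683 for inside and 1.22 for downstream summits. Against interiors, 1.01 became 0.754 for inside and 1.35 for downstream summits, and against farther downstream 0.58 became 0.742 in peaks of 400 to 600 bp. The ratio of genes with the higher fold at the end, 0.8, became, by the exact binomial test, 0.813 (adjusted p = 0.111) at −log10 q of at least 10, 1.01 in longer genes, 1.38 in peaks of 400 to 600 bp (adjusted p = 0.434), 0.81 (adjusted p = 0.205) in 250 bp and 0.829 without chromosome 5 (adjusted p = 0.0548). With a neighbouring start 1.05 became 2.96 at 20-fold, and with a start summit 0.975 became 0.768 in longer genes. The odds ratio for the outer parts of the chromosomes, 1.14, became 1.04 at −log10 q of at least 10, 1.0 in peaks of 400 to 600 bp and 1.16 in 250 bp, none of which passed. Without chromosome 2, 5, 6, 8 or 9 it was 1.11, 1.12, 1.12, 1.13 and 1.12, again without passing. Depth limits the weak summits, which rest on as few as 9 reads, and 1 library per group leaves replicate error unknown.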

Other observations

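Peaks listed with several genes were left out of the counts above, and 94 of them had their summit within 500 bp of the end of a gene of at least 1500 bp. Their median fold was 10.9, and 49 (52.1%) reached 10-fold. At 22 of them the summit lay within 500 bp of the ends of 2 such genes, with a median fold of 8.06 and a range of 3.86 to 31.2. At 15 it lay within 500 bp of 1 gene end and of the start of another gene, with a median fold of 24.2 and a range of 5.61 to 80.6, and 12 of these 15 reached 10-fold. The other 57 were within 500 bp of 1 gene end only and had a median fold of 10.9. These groups are small and were not tested against each other.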
